A study of Sus scrofa with 2 samples.

Results

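Chromosomes 17 and 18 of the pig were profiled for DNA copy number in an angiosarcoma-like liver tumor and in control liver tissue. Their members are the array probes that the spot annotation places on these chromosomes, 4728 on chromosome 17 and 4640 on chromosome 18, which is 9368 of the 177440 probes for DNA of the pig on each array. Chromosomes 13 to 18 of the pig are acrocentric, with the centromere close to one end, so that each consists in effect of a single arm. By the last probe position, chromosome 18 was the shortest autosome (54298470) and chromosome 17 the third shortest (64366170), with chromosome 12 between them (57407395). The arrays do not show where a centromere lies, so the acrocentric form was taken from the known pig karyotype and was not measured.

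The study gave pigs diethylnitrosamine (DENA), a carcinogen that alkylates DNA and is activated in the liver, and asked whether the resulting angiosarcoma-like tumors, which resemble malignancies of the vessel lining, carry gains and losses of DNA. The tumor came from the liver of a female pig 10 months after 200 mg/kg DENA, and the control was liver tissue of a female pig labelled as free of tumor. The labels carry the same treatment text for both samples, so whether the control animal received DENA is not settled. On each array, DNA of the tissue was labelled with Cy3 and set against DNA of reference liver, also female, labelled with Cy5. The paper describes paraffin embedding and micro-dissection for the tumors. With 1 array a tissue there are no replicates, no test between the tissues was possible, and the arrays lay on different slides, so that an effect of slide and an effect of tissue cannot be told apart. Errors given here are spreads over the probes of one array and do not measure variation between animals.

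In array-based comparative genomic hybridization, the DNA of a tissue and a reference compete for probes placed along the genome. The log2 ratio of their signals follows the relative number of DNA copies. A ratio of 0 stands for the level of a typical autosomal probe on the same array. A region lost in part of the cells gives values below 0, a gained region values above 0, and normal cells in the dissected tissue pull both towards 0. The ratio also moves with technical properties of a region, among them how brightly its probes shine.

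Chromosome 17 carries genes that are known from endothelium and liver as well as from growth control, and chromosome 18 carries a cluster of developmental genes. RefSeq (Sscrofa11.1) places 604 protein-coding genes on chromosome 17 and 419 on chromosome 18. Of 20663 protein-coding genes in all, the names below were picked because they were known or thought to lie on these chromosomes, so they show no concentration of any group there. Chromosome 17 holds THBD and PROCR, receptors of the anticoagulant protein C pathway, JAG1, a Notch ligand, and SOX18, a transcription factor of endothelial cells. CAV1, the coat protein of caveolae, and NOS3, the endothelial nitric oxide synthase, lie on chromosome 18. Of growth and cell cycle genes, chromosome 17 holds the tyrosine kinase SRC, the mitotic kinase AURKA and the cell cycle transcription factor E2F1. Chromosome 18 holds MET, the receptor of hepatocyte growth factor, and the kinase BRAF. Of liver genes, HNF4A and FOXA2, transcription factors of hepatocytes, lie on chromosome 17, while AKR1D1 of bile acid synthesis lies on chromosome 18. The HOXA genes lie on chromosome 18, and the developmental genes BMP2 and PAX1 on chromosome 17. The spots name positions without genes and the files name no genome build, so no copy number is given for any gene, and the values below belong to regions.

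Probe coverage was even enough for 1 Mb windows on both chromosomes. Neighbouring probes lay a median of 10175 bp apart on chromosome 17 and 9250 bp apart on chromosome 18, and the widest gaps were 185000 bp and 278425 bp. Spots flagged as outliers were not used, 1 on each array on chromosome 17 and 2 on the tumor array on chromosome 18. Chromosome 17 fell into 65 windows with a median of 75 probes (17 to 104 on the tumor array), and chromosome 18 into 55 windows with a median of 85 probes (25 to 104). Each window is given by the median of its log2 ratios. The standard error of a window median, computed from the SD over its probes, had a median of 0.063 on chromosome 17 and 0.066 on chromosome 18 of the tumor array, and of 0.065 and 0.063 on the control array. A window median of 0.2 in size is therefore about 3 standard errors from 0, and this limit was used to count windows as low or high.

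Taken whole, chromosome 17 was low on the tumor array and chromosome 18 was close to the autosomal level. The median log2 ratio of chromosome 17 was -0.10 on the tumor array, with an SD of 0.470 over 4727 probes. In the control tissue it was -0.0066 with an SD of 0.480. For chromosome 18 the medians were -0.019 (SD 0.510 over 4638 probes) and 0.0073 (SD 0.489). The gap between the arrays on chromosome 17 was smaller with other signals, with -0.11 and -0.061 after normexp, and -0.060 and -0.0017 with the deposited log ratio. On the tumor array chromosome 17 ranked the fourth lowest of the 18 autosomes and chromosome 18 the eighth lowest. The tumor array median of chromosome 17 is small beside the spread of its probes, but 58.6% of its probes were below 0 there, against 50.8% on the control array. On chromosome 18 the shares were 51.8% and 49.3%.

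Low windows outnumbered high ones on chromosome 17 of the tumor array, while chromosome 18 held both. On chromosome 17, 21 of 65 windows (32.3%) had a median at or below -0.2, where 17% of all autosomal windows did. At or above 0.2 there were 3 (4.62%), against 16.7% of all autosomal windows, and no other autosome had a smaller share. On chromosome 18, 10 of 55 windows (18.2%) were low and 7 (12.7%) were high, both near the autosomal shares. On chromosomes 13 to 16, the other acrocentric autosomes, 13.4% of the windows were low and 18.9% high. On the control array 1 window of chromosome 17 was low, where 1.72% of autosomal windows were, and no window of either chromosome was high, where 1.96% of autosomal windows were. The windows of the tumor array spread with an SD of 0.177 on chromosome 17 and 0.194 on chromosome 18, against 0.197 over all autosomes. For the control tissue the SDs were 0.0889 and 0.0765, and the value of chromosome 18 was the lowest of the 18 autosomes. The flatness of the control array depended strongly on the signals used. Normexp on the median signals changed both the input signal and the background correction, so the move cannot be given to either alone. With it the control SDs were 0.162 and 0.128. Past 0.2 in size were then 27.7% of the control windows of chromosome 17 and 14.5% of those of chromosome 18. The profiles differed more along each chromosome than these totals show.

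**Figure D1:**
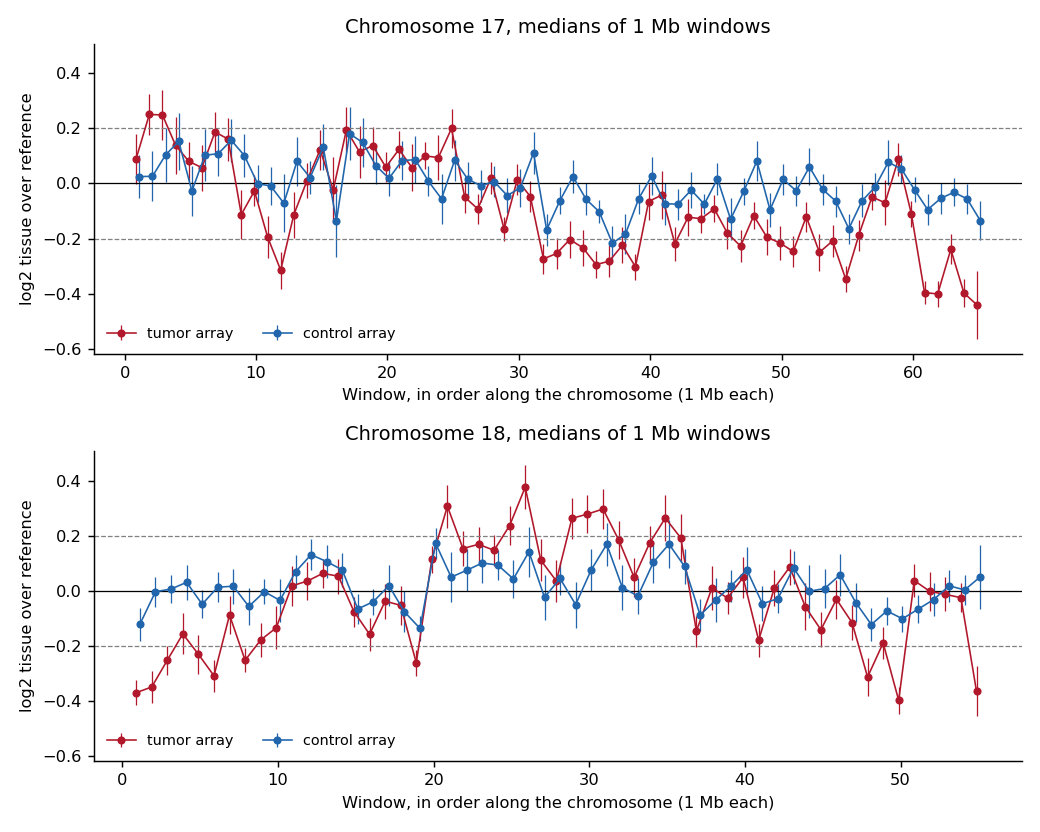
Median log2 ratio of tissue over reference (vertical axis) in each 1 Mb window of chromosomes 17 and 18 in order along the chromosome (horizontal axis), for the tumor array (red) and the control array (blue), with bars of 1 standard error over the probes of the window and dashed lines at 0.2 in size. On chromosome 17 the tumor array runs above 0 at the start and ends at -0.44 in its last window. On chromosome 18 it is above 0 in 17 windows in a row in the middle. It is below 0 there in the first 10 windows and from 43000001 to 50000000.

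Chromosome 17 fell from start to end on the tumor array. The first 8 windows, up to 8000000, were all above 0, with a median of 0.15 (0.057 to 0.25), while the control array had a median of 0.10 in the same windows (-0.027 to 0.16). A dip followed from 8000001 to 13000000, with 5 windows below 0 and a lowest value of -0.31, where the control array lay between -0.072 and 0.10. From 16000001 to 25000000, 9 windows were again above 0 with a median of 0.11. The next 5 windows lay on both sides of 0, and an unbroken low stretch began at 30000001. From there to 58000000 all 28 windows were below 0 on the tumor array, with a median of -0.21 (-0.35 to -0.042), and the control array had a median of -0.056 there (-0.22 to 0.11). A single window, from 58000001 to 59000000, rose to 0.087. The last 6 windows, from 59000001 on, had a median of -0.40 (-0.44 to -0.11) on the tumor array and -0.055 (-0.13 to -0.023) on the control array, so the tumor array lay below the control array in their medians and both arrays lay below 0 throughout.

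The highest windows of chromosome 17 lay before its midpoint. The highest on the tumor array were the window from 1000001 to 2000000, with 0.25 ± 0.075 (SE over 78 probes), the window from 2000001 to 3000000, with 0.25 ± 0.091 (81 probes), and the window from 24000001 to 25000000, with 0.20 ± 0.070 (66 probes). On the control array these 3 windows had 0.026 ± 0.091, 0.10 ± 0.098 and 0.085 ± 0.075. The first window of the chromosome had 0.090 ± 0.091 in the tumor and 0.025 ± 0.079 in the control tissue, neither further from 0 than 1 standard error. The lowest windows were all near the end. The last window, a short one with 17 probes, had -0.44 ± 0.13 on the tumor array, against -0.13 ± 0.071 in the control tissue. The window from 61000001 to 62000000 had -0.40 ± 0.048 (104 probes) against -0.054 ± 0.057, and the window from 63000001 to 64000000 had -0.40 ± 0.051 (83 probes) against -0.056 ± 0.056. In these last 2 the tumor array lay below the control array by more than 4 standard errors over probes. They were named for being among the lowest on the tumor array, so this gap describes them and is not a test.

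Split at its midpoint, chromosome 17 had a median over windows of 0.058 before it and -0.22 after it on the tumor array. The difference of -0.27 was the lowest of the 18 autosomes, followed by -0.15 on chromosome 16 and -0.14 on chromosome 4. On the control array the medians were 0.026 and -0.056, and their difference of -0.081 was again the lowest of the 18. The fall along chromosome 17 was therefore present on both arrays and larger in the tumor. How much larger depended on the signal used, since normexp background correction of the median signals gave -0.33 (tumor array) and -0.22 (control array). The split was chosen after the profile had been seen, so these ranks describe the shape and do not test it.

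**Figure D2:**
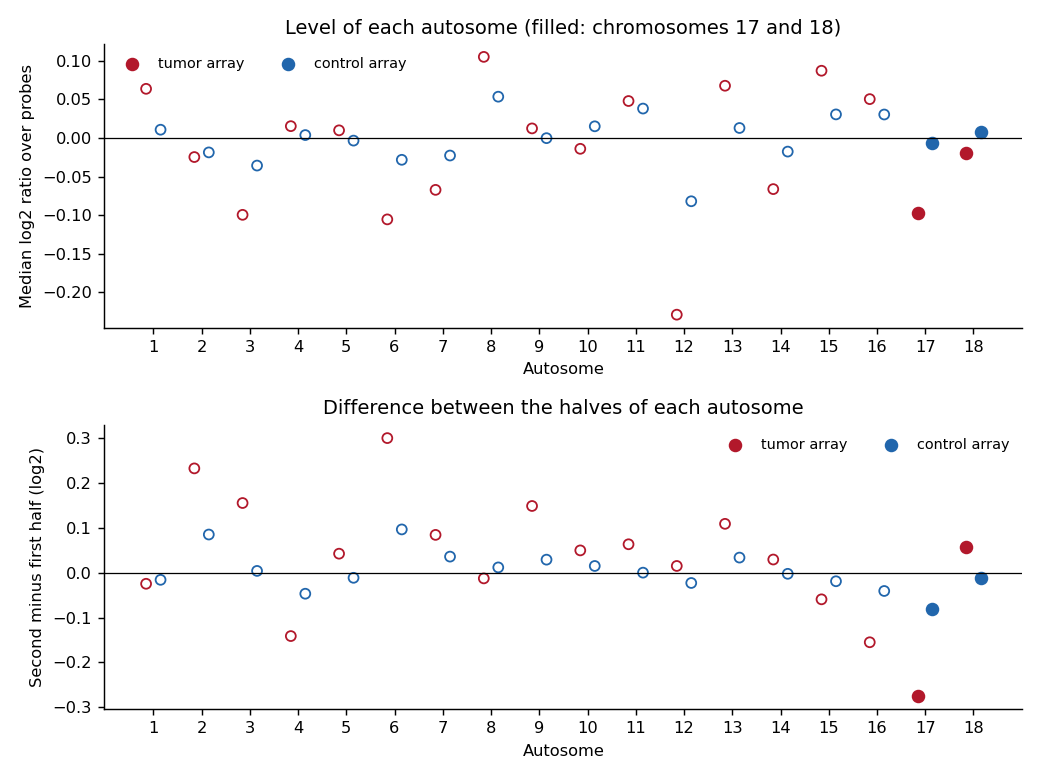
Median log2 ratio of each autosome over its probes (upper panel) and difference between the median over windows after and before the midpoint of each autosome (lower panel), for the tumor array (red) and the control array (blue), with chromosomes 17 and 18 filled. Chromosome 17 has the lowest difference on both arrays, -0.27 and -0.081, while its median on the tumor array, -0.10, is the fourth lowest.

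Chromosome 18 was high in the middle on the tumor array, and low at its start and from 43000001 to 50000000. The first 10 windows were all below 0, with a median of -0.24 (-0.37 to -0.088), and the control array had a median of -0.0036 there (-0.12 to 0.030). From 19000001 to 36000000 all 17 windows were above 0, with a median of 0.19 (0.036 to 0.38), against 0.076 on the control array (-0.050 to 0.17). From 43000001 to 50000000, 7 windows were below 0 with a median of -0.14, against -0.043 on the control array. The windows between these stretches lay on both sides of 0, and from 50000001 to 54000000 they stayed within 0.037 of 0.

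The highest windows of chromosome 18 all fell inside the raised middle. The window from 25000001 to 26000000 had 0.38 ± 0.079 (SE over 82 probes) on the tumor array, against 0.14 ± 0.091 in the control tissue. The window from 20000001 to 21000000 had 0.31 ± 0.078 (85 probes) against 0.049 ± 0.090, and the window from 30000001 to 31000000 had 0.30 ± 0.073 (90 probes) against 0.17 ± 0.078. The control array was also above 0 in each of the 3. Of the low windows, the one from 49000001 to 50000000 had -0.40 ± 0.049 (90 probes) against -0.10 ± 0.047, and the first of the chromosome had -0.37 ± 0.046 (102 probes) against -0.12 ± 0.059. The last window, with 25 probes, had -0.37 ± 0.090 in the tumor and 0.050 ± 0.12 in the control tissue, so here the arrays lay on opposite sides of 0.

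Cut into 3 equal lengths, chromosome 18 had a median over windows of 0.18 in the middle length and -0.088 in the outer ones on the tumor array. The difference of 0.27 was the highest of the 18 autosomes, with 0.23 on chromosome 11 next. On the control array the medians were 0.075 and -0.0036, and the difference of 0.078 was the fourth highest. This control difference was 0.022 with the deposited log ratio and 0.15 with normexp, and so depended on the signal used. As on chromosome 17, the cut was chosen after the profile had been seen.

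By the difference of their window medians, the tumor array was more often below the control array than above it on both chromosomes. The difference was below 0 in 47 of 65 windows of chromosome 17 (median -0.088, from -0.35 to 0.22) and in 34 of 55 windows of chromosome 18 (median -0.043, from -0.42 to 0.31). Over all autosomes it was below 0 in 1030 of 2145 windows. The standard error of a difference had a median of 0.088 on chromosome 17 and 0.094 on chromosome 18. At or below -0.2 there were 12 windows of chromosome 17 (18.5%) and 6 of chromosome 18 (10.9%), where 8.30% of all autosomal windows were. At or above 0.2 there were 1 (1.54%) and 4 (7.27%), where 6.76% of all autosomal windows were. When the difference was taken probe by probe and centred anew before the window median, the low windows were 6 on chromosome 17 (9.23%) and 4 on chromosome 18 (7.27%), where 3.26% of all autosomal windows were. The high windows were then 1 (1.54%) and 5 (9.09%), where 6.25% of all autosomal windows were. Windows below 0 numbered 45 and 31, and over all autosomes 924 of 2145. On chromosome 18 the low and high counts were within 2 windows of each other either way, and which was larger turned with how the difference was formed. The arrays may share the reference DNA, which the labels describe in the same words for both, and the values are therefore given side by side without a correlation.

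On chromosome 17 the largest negative differences were -0.35 ± 0.074 (SE) from 61000001 to 62000000 and -0.34 ± 0.076 from 63000001 to 64000000, followed by -0.31 ± 0.14 in the last window. The positive ones were 0.22 ± 0.12 from 1000001 to 2000000, 0.15 ± 0.12 from 23000001 to 24000000 and 0.15 ± 0.13 from 2000001 to 3000000. Each of these positive differences is within 2 standard errors of 0. On chromosome 18 the most negative difference, -0.42 ± 0.15, belonged to the short last window, and -0.35 ± 0.080 was measured from 1000001 to 2000000 and -0.32 ± 0.079 from 5000001 to 6000000. The most positive were 0.31 ± 0.11 from 28000001 to 29000000, 0.26 ± 0.12 from 20000001 to 21000000 and 0.23 ± 0.12 from 25000001 to 26000000.

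**Figure D3:**
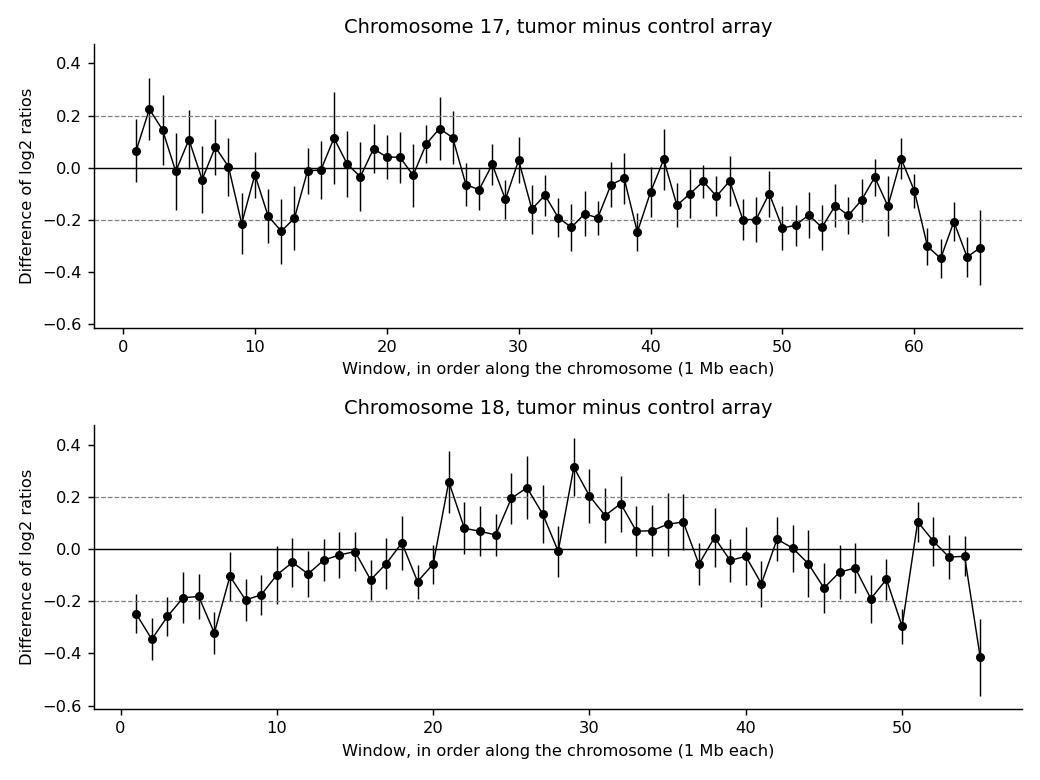
Difference between the tumor and the control array in the median log2 ratio of each 1 Mb window (vertical axis) in order along chromosomes 17 and 18 (horizontal axis), with bars of 1 standard error over probes and dashed lines at 0.2 in size. The end of chromosome 17 falls to -0.35 and the short last window of chromosome 18 to -0.42, while the middle of chromosome 18 reaches 0.31.

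Losses and gains were next called as intervals of neighbouring probes. The score of an interval is the sum of its log2 ratios over the noise between neighbouring probes (0.40 for the tumor and 0.421 for the control array) and the square root of its probe number. An interval was kept if it scored 6 or more, held 3 probes or more and had a mean of 0.25 or more in size. On the tumor array 17 intervals were called on both chromosomes together, 12 losses and 5 gains, over 39.0 Mb or 32.8% of their length, where 32.4% of the length of all autosomes was called. These calls depended on the settings of the search, with 3 intervals over 14.7 Mb at a score of at least 12, and 2 intervals (1 loss and 1 gain) over 4.02 Mb with the limit on the mean applied after the search. Losses made up 70.6% of the 17 intervals, where they were 47.9% of the 284 intervals of all autosomes, these 17 among them. The intervals come from 1 search of 1 array and are not replicates, so these shares are descriptions and were not compared by a test. Losses held 25.9% of the probes and gains 8.40%, where 18.5% and 14% of all autosomal probes lay in losses and gains. On chromosomes 13 to 16 the shares were 12.1% and 15.8%. On chromosome 17 losses held 28.2% of the probes and gains 2.28%, and on chromosome 18 losses held 23.5% and gains 14.6%.

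Losses covered 17.3 Mb of chromosome 17 in 6 intervals, and 5 of them lay beyond 31 Mb. The interval with the highest score, 17.5, ran from 59447901 to 64097920 near the end of the chromosome. Its mean on the tumor array was -0.34 ± 0.018 (SE over 416 probes), and the same probes had -0.030 ± 0.020 on the control array. By the median the values were -0.38 and -0.057. The loss from 34403526 to 38906470 had -0.26 ± 0.020 (336 probes), against -0.13 ± 0.022 on the control array. The losses from 52072876 to 55359445 and from 31160476 to 33643220 had -0.26 ± 0.024 (253 probes) and -0.27 ± 0.028 (167 probes), against -0.081 ± 0.025 and -0.069 ± 0.024. In each of these 4 losses the control array was below 0 as well, by a smaller amount. The loss from 48266501 to 50606795 had -0.25 ± 0.033 (156 probes) against -0.019 ± 0.031, and by the median -0.24 against -0.072. The only gain, from 1425426 to 2784295, had 0.33 ± 0.059 (108 probes) in the tumor, against 0.23 ± 0.067 in the control tissue.

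Chromosome 18 had 6 losses over 12.5 Mb and 4 gains over 7.81 Mb on the tumor array. The widest loss spanned 1 to 7388020 and scored 15.7. Its mean was -0.25 ± 0.018 (SE over 611 probes), against 0.013 ± 0.017 on the control array. The medians of the same probes were -0.26 and -0.023, so on the control array the side of 0 turned with the measure. The loss from 47303576 to 49964845 had -0.31 ± 0.027 (245 probes) against -0.065 ± 0.024. The loss from 17950551 to 18475995 had the largest mean in size among the intervals of over 10 probes, -0.38 ± 0.040 (51 probes), against -0.14 ± 0.045. The 4 gains all lay in the middle of the chromosome, between 19537851 and 35109345. The gains from 28272626 to 30560195 and from 23922351 to 26184020 both had a mean of 0.30 (± 0.036 over 220 probes and ± 0.040 over 192 probes), against 0.14 ± 0.042 and 0.10 ± 0.042 on the control array. The gain from 19537851 to 21400845 had 0.26 ± 0.040 (172 probes) against 0.086 ± 0.045, and the gain from 33712551 to 35109345 had 0.28 ± 0.056 (95 probes) against 0.25 ± 0.058. In this last gain the arrays differed by less than 1 standard error.

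The control array had 6 intervals on these chromosomes, and all were gains, as were 127 of its 137 intervals over all autosomes. On chromosomes 17 and 18 none was called when only probes well above background in both channels were kept, at a score of at least 12, or with the limit on the mean applied after the search. The 6 gains held 6.03% of the probes of chromosome 17 and 3.88% of those of chromosome 18, where 5.28% of autosomal probes lay in gains and 0.298% in losses. On chromosome 17 the gain from 5312276 to 7445370 had 0.25 ± 0.044 (183 probes) on the control array and 0.069 ± 0.044 on the tumor array, and the gain from 1497576 to 2772270 had 0.27 ± 0.068 (99 probes) and 0.33 ± 0.062. On chromosome 18 the gain from 33440601 to 34983545 had 0.28 ± 0.054 (106 probes) on the control array and 0.19 ± 0.048 on the tumor array, and the gain from 30288201 to 31049520 had 0.32 ± 0.071 (67 probes) and 0.17 ± 0.067. These 4 gains lay in the first part of chromosome 17 and in the middle of chromosome 18.

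The shortest intervals rested on few dim probes. A 3-probe loss of the tumor array on chromosome 17, from 8024376 to 8035520, had values of -2.26, -0.22 and -1.87, against 0.35, -0.54 and 1.29 on the control array. None of these probes was well above background in both channels of the tumor array. A 3-probe loss on chromosome 18, from 10041801 to 10062195, had -2.17, -0.044 and -2.17, against -1.19, 0.23 and -0.73, and its middle probe alone was well above background in both channels. The shortest gains of the control array were alike. The one on chromosome 17 from 21068726 to 21088195 had a mean of 1.49 over 3 probes (tumor array -0.54), and the one on chromosome 18 from 39270876 to 39346770 a mean of 1.24 over 7 probes (tumor array 0.23).

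Single probes far from 0 were mostly dim, on these chromosomes as over all autosomes. On the tumor array 144 of 9364 probes of chromosomes 17 and 18 (1.54%) had a log2 ratio at or above 1, where 2% of autosomal probes did, and 273 (2.92%) were at or below -1, where 3.03% did. Of these, 45 and 47 were well above background in both channels. Over all autosomes 1202 of 3362 and 737 of 5091 were. In the control tissue 273 (2.92%) were at or above 1, against 3.56% of autosomal probes, and 158 (1.69%) at or below -1, against 2%. There, 60 and 6 were well above background in both channels, and over all autosomes 1066 of 5992 and 204 of 3364. Pooled over chromosomes 17 and 18, the shares at or past 1 in size were below the autosomal ones. Chromosome 18 alone had 3.08% of its tumor array probes at or below -1, against 3.03% of autosomal probes.

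The log2 ratio moved with the brightness of the region on both chromosomes. In the first 10 Mb of chromosome 17 the median background-subtracted signal on the tumor array was 43.9 for the tissue and 70.3 for the reference, and the median log2 ratio was 0.098. Beyond 60 Mb the signals were 137 and 310, and the ratio was -0.38. The reference channel of the control array rose in the same way, from 56.2 to 241, while the ratio there went from 0.083 to -0.055. On chromosome 18 the order was reversed in position but not in relation. In the first 10 Mb of the tumor array the signals were 101 and 207 with a ratio of -0.24, and from 20 to 30 Mb, in the raised middle, they were 47.6 and 68.8 with a ratio of 0.21. Bright regions thus had low ratios and dim regions high ones.

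**Figure D4:**
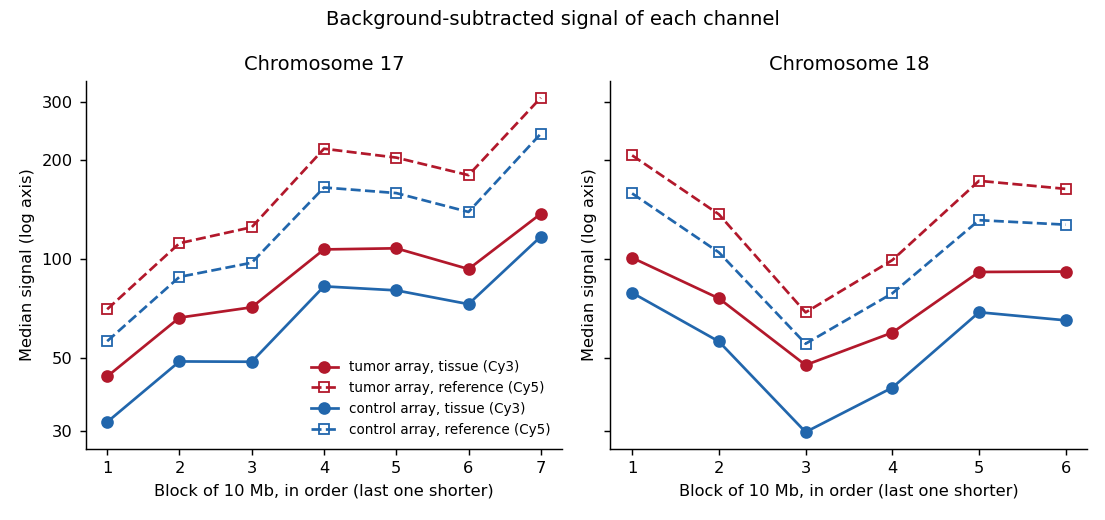
Median background-subtracted signal (vertical axis, logarithmic) of the tissue channel (filled circles, Cy3) and the reference channel (open squares, Cy5) on the tumor array (red) and the control array (blue), in blocks of 10 Mb in order along chromosomes 17 and 18 (horizontal axis, last block shorter). The reference signal of the tumor array rises along chromosome 17 from 70.3 to 310 and on chromosome 18 is lowest in the third block, at 68.8.

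Across the windows, the tumor array ratio correlated with the log2 reference signal of the other array, that of the control tissue, at r = -0.92 on chromosome 17 (65 windows) and -0.91 on chromosome 18 (55 windows), and at -0.90 over chromosomes 1 to 16. The windows of one array share its hybridisation and labelling, and neighbours may share base composition, which was not measured, so these values are descriptions. Whether both arrays carried the same reference DNA is not settled, but their log2 reference signals were close. In the first and last windows of chromosome 17 they were 9.09 and 11.67 on the tumor array, and 9.08 and 11.62 on the control array. On chromosome 18 they were 10.50 and 10.24, and 10.41 and 10.16. The reference signal used here is thus close to the denominator of the ratio. With that, r can lie below 0 without any difference in copy number. The trend used next shares this limit. For the control array ratio and the reference signal of the tumor array, r was -0.71 and -0.65. A smooth trend of the ratio on local brightness was then learned on the other 16 autosomes and removed from chromosomes 17 and 18, an alternative chosen after the data had been seen. The SD of the window medians of the tumor array fell to 0.0653 on chromosome 17 and 0.0751 on chromosome 18, beside 0.0650 and 0.0601 on the control array after the same step. The medians of the chromosomes became -0.0069 and -0.0079. No window of chromosome 17 and 1 of chromosome 18 was then past 0.2 on the tumor array, where 0.420% of autosomal windows were low and 0.559% high.

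The fall along chromosome 17 was not present after this step, since the difference across the midpoint was 0.017 on the tumor array. Of the raised middle of chromosome 18, a difference of 0.053 was measured in place of 0.27, and on the control array the difference was -0.048 in place of 0.078. The loss at the end of chromosome 17 had a mean of -0.059 in place of -0.34, against 0.085 on the control array, and the loss at the start of chromosome 18 had -0.067 in place of -0.25, against 0.084. The tumor array was below the control array in 11 of its 12 losses and above it in 3 of its 5 gains after this step, and these intervals had been chosen on the tumor array. The interval values are means over probes. As measured, the control array mean lay above its median, at 0.028 against -0.0066 on chromosome 17 and 0.050 against 0.0073 on chromosome 18. On the tumor array they were close, at -0.093 and -0.097, and -0.022 and -0.019. Such an offset would lower the tumor array relative to the control array in losses and gains alike. The loss from 34403526 to 38906470 on chromosome 17 had -0.016 against -0.032, and the gain from 33712551 to 35109345 on chromosome 18 had 0.075 against 0.16. The 1 remaining window was the short last one of chromosome 18, with -0.22. Called anew, 4 losses and no gain were found on the tumor array. The longest ran from 2794426 to 4138495 on chromosome 17, with a mean of -0.30 (SD 0.634 over 90 probes), where the ratios as measured were -0.046 (tumor array) and 0.20 (control array). The others had 11 or fewer probes. Brightness can follow base composition and other properties of a region, whose part in these profiles was not tested.

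**Figure D5:**
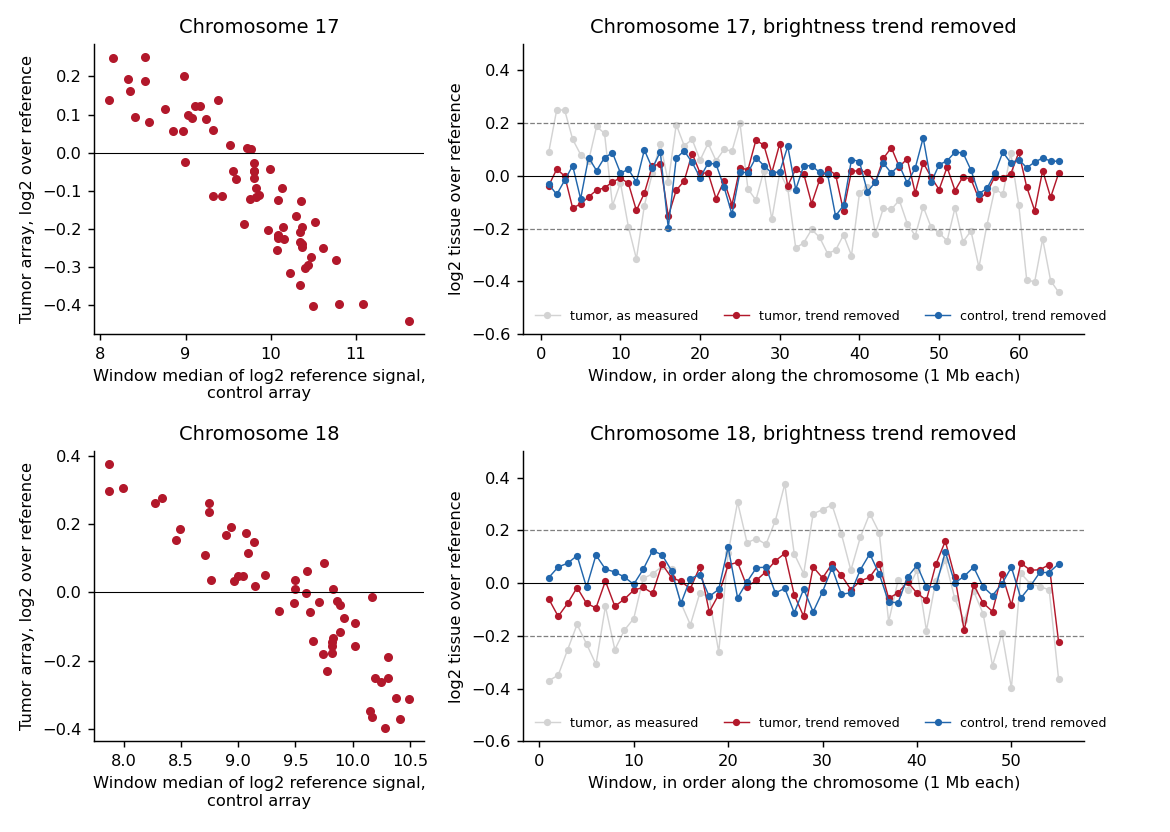
Left panels, median log2 ratio of each 1 Mb window on the tumor array against the median log2 reference signal of the same window on the control array, for chromosomes 17 and 18; right panels, the window medians along each chromosome as measured on the tumor array (grey) and with the brightness trend of the other 16 autosomes removed, for the tumor (red) and the control array (blue). The points fall with brightness (r = -0.92 and -0.91), and with the trend removed only the last window of chromosome 18, at -0.22, lies beyond the dashed lines at 0.2 in size.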

How the data were processed

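Genomic DNA of 1 tumor and 1 control tissue was hybridised against reference liver on 1 array each. The authors used Agilent Feature Extraction 11.0.1.1 and deposited intensity values per spot, with the background subtracted and the dyes scaled by a linear factor. The deposited log10 ratio per spot is red over green, which the series table repeats. The labels and the methods name array formats smaller than the 177440 probes found, and the genome build of the positions is not given in the sources used here.

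Log2 ratios of the tissue channel over the reference channel were formed from the processed signals and centred on the median of chromosomes 1 to 18, without loess. Windows of 1 Mb needed 5 probes. The trend on brightness was a lowess curve (fraction 0.3) on local brightness, averaged as log2 reference signal of the opposite array over 250 kb to either side. The cuts at the midpoint of chromosome 17 and into 3 lengths of chromosome 18 were chosen after the profile was seen. Named windows were the 3 highest, the 3 lowest and the 3 largest differences in each direction on each chromosome, with the first and the last, and named intervals the 5 with the highest score and the 3 with the largest mean on each chromosome and array. The chromosome 17 loss from 48266501 and the chromosome 18 gain from 33712551 fall outside this rule and were named after their values were seen. The members and gene lists were chosen with earlier results of these data known. Gene names were taken from RefSeq by symbol, and all symbols matched.

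Alternatives were other signals, background correction, centring, direction, window sizes and limits, scores, and subtraction of the control array. Computations ran in Python 3.11.15 (numpy 2.4.6, scipy 1.17.1, pandas 2.3.3, statsmodels 0.14.6, numba 0.67.0, matplotlib 3.10.9) and in R 4.3.3 (limma 3.58.1).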

Additional observations from a re-analysis of the deposited data

How the results depend on the processing

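Of 329 comparisons of a result with an alternative, over 23 alternatives, 237 stayed within the limits set for them (medians within 1 SD over windows, shares within their 95% Clopper-Pearson interval, other values within 1.5 times), 73 moved beyond these and 19 changed sign. These limits are wide, and 31 of the 237 differed from the value reported by over 1.5 times, or one of the pair was 0. The Clopper-Pearson limits treat windows and intervals of 1 array as independent, which they are not, and serve only as a width. Part of the 237 could not have moved. The series table repeats the deposited log ratio, and centring leaves window SDs and differences within a chromosome unchanged. Red over green leaves SDs, interval numbers and called length unchanged. The 237 are therefore no measure of stability. Except for the change of sign that red over green brings and the smaller windows and limits that define the counts, why values moved was not tested.

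With red over green as deposited, the medians were 0.097 on chromosome 17 and 0.019 on chromosome 18 of the tumor array, and 0.0066 and -0.0073 on the control array. The difference across the midpoint of chromosome 17 became 0.27 (tumor array) and 0.081 (control array), and that between the middle and outer lengths of chromosome 18 became -0.27 and -0.078. High windows of chromosome 17 were then 32.3%, low ones 4.62%, and losses 29.4% of the intervals.

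With the brightness trend of all autosomes removed, the window SDs of the tumor array were 0.0653 and 0.0750, the tumor median of chromosome 17 was -0.0069 in place of -0.097 and that of chromosome 18 was -0.0076 in place of -0.019, the control median of chromosome 17 was 0.026, the difference across the midpoint was 0.017 (tumor array) and 0.016 (control array), and the middle of chromosome 18 differed by 0.053 and -0.046. With the trend learned on the other 16 autosomes, chosen after seeing the data, these values were 0.0653, 0.0751, -0.0069, -0.0079, 0.027, 0.017, 0.017, 0.053 and -0.048. With either, low windows of the tumor array were 0% of chromosome 17 and 1.82% of chromosome 18, high ones 0% of both, and windows past the limit on the control array 0% of chromosome 17. The tumor array then had 4 intervals over 1.49 Mb, of which 100% were losses, and the control array 3.

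Subtraction of the control array left a tumor median of -0.060 on chromosome 17, high windows of 1.54% and 9.09%, low windows of 9.23% and 7.27%, window SDs of 0.106 and 0.129, a difference across the midpoint of -0.13, a raised middle of 0.17 and a called length of 15.9 Mb in place of 39.0 Mb. Normexp on the median signals, since the spot columns hold no mean signals, gave 61.4 Mb, 15 control intervals, control medians of -0.061 on chromosome 17 (-0.0066 as reported) and -0.010 on chromosome 18, tumor medians of -0.11 and -0.038, control window SDs of 0.162 and 0.128, control windows past the limit of 27.7% and 14.5%, and control differences of -0.22 on chromosome 17 and 0.15 on chromosome 18. High windows of the tumor array were 1.54% of chromosome 17 and 7.27% of chromosome 18 with it, in place of 4.62% and 12.7%. The deposited log ratio and the series table both gave 0.022 for the control difference on chromosome 18, a tumor median of -0.060 and a control median of -0.0017 on chromosome 17, and medians of 0 on chromosome 18 of both arrays. Centring on the mode gave control medians of 0.053 on chromosome 17 and 0.067 on chromosome 18 (0.0073 as reported), 12 control intervals and 6.15% and 7.27% of control windows past the limit. Means in place of medians gave control values of 0.028 on chromosome 17 and 0.050 on chromosome 18, 1.54% of high tumor windows on chromosome 17, and 4.62% and 3.64% of control windows past the limit.

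A limit of 0.1 on the window median gave 50.8% and 34.5% low and 18.5% and 27.3% high windows on the tumor array, and 27.7% and 21.8% past it on the control array. A limit of 0.3 gave 10.8% low and 0% high on chromosome 17, 10.9% low (in place of 18.2%) and 3.64% high on chromosome 18, and 0% past it on the control array of chromosome 17. Windows of 5 Mb gave 0% high (tumor array) and 0% past the limit (control array) on chromosome 17 and a control SD of 0.0465 on chromosome 18, and windows of 500 kb gave 8.53% and 2.75% past the limit on the control array.

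A score of at least 12 left 3 tumor intervals over 14.7 Mb, 100% losses, and 0 control intervals. A mean of at least 0.1 gave 7 tumor intervals over 73.6 Mb and 3 control intervals, a mean of at least 0.4 gave 9.51 Mb and 3 control intervals, and the limit on the mean applied after the search gave 2 tumor intervals over 4.02 Mb, 50% losses, and 0 control intervals. Probes well above background in both channels also gave 0 control intervals, 10.8% high windows on chromosome 17 of the tumor array, and control medians of -0.0035 and 0.013.

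The planned GC correction was not run for lack of probe sequences in the files used here. No paired analysis was possible because there was 1 array a tissue. In the tissue channel 83.8% of the probes of chromosome 17 and 82.1% of those of chromosome 18 were well above background on the tumor array, which limits what the rest can show.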

Other observations

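With the control array subtracted probe by probe, the longest intervals were 2 losses. The loss of chromosome 18 spanned 30526 to 6008845 and averaged -0.26 (SD 0.469, 487 probes). The loss of chromosome 17 spanned 59779051 to 64157120 and averaged -0.30 (SD 0.415, 384 probes). These are the start of chromosome 18 and the end of chromosome 17, where both channels were brightest among the blocks of each chromosome.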
